A study of Mus musculus with 24 samples.

Results

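Histones, the high mobility group (HMG) proteins and the proteins that bind or carry nucleosomes were followed through adipocyte differentiation and between adipose depots by ribosome profiling and RNA-seq. The genes were taken by symbol from a table of RPKM values, which scale the reads on a coding sequence by its length and by the mapped reads of the library, as every symbol that begins with Hist and a digit, H1f, H2af, H3f, Hmga, Hmgb, Hmgn, Nap1l or Cbx and a digit. That rule was met by 109 of the 22418 genes listed, and 32 of them had a value above 0 in each of the 24 libraries and were tested beside all 5035 genes with complete values. These 32 were 18 of 69 genes of the Hist clusters, 7 of 16 histone variant genes, 2 of 11 HMG genes, 2 of 5 NAP1 family genes and 3 of 8 chromobox genes. A further 68 had a value in some libraries and 9 in none. Every incomplete row of the table was blank in the same library, so the library to which its other values belong could not be settled and no value of those rows was used.

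Nucleosomes are built from the core histones H2A, H2B, H3 and H4 and are closed by the linker histone H1. The Hist genes are known as replication-dependent: as a class they lie in clusters and are expressed mainly in S phase. Their mRNAs typically end after a short stem-loop that is bound by the stem-loop binding protein SLBP, in place of a poly(A) tail. The class was taken from the symbol, and whether each gene depends on replication was not tested. The variants H2A.Z (H2afz, H2afv), H3.3 (H3f3a, H3f3b), macroH2A (H2afy) and H2A.J (H2afj) are expressed throughout the cell cycle from mRNAs with a poly(A) tail. HMGB proteins bend DNA, NAP1 proteins are chaperones of H2A and H2B, Cbx3 and Cbx5 are heterochromatin proteins that bind methylated H3, and Cbx6 is a Polycomb subunit.

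All cells and tissues came from C57BL/6 mice, with 2 libraries per group for ribosome-protected fragments (RPF) and 2 for RNA. Cultured stromal vascular cells of interscapular brown fat (brown cells) and of inguinal subcutaneous white fat (white cells) were harvested at day 5 of differentiation, induced with insulin, dexamethasone, isobutylmethylxanthine and rosiglitazone, and at day 0 before induction. The tissue samples, intact interscapular brown fat (BAT) and epididymal white fat (eWAT), came from male animals of 6 weeks, pooled from 3 mice per sample. The study's methods give 2 to 3 weeks as the age of the mice used for culture. The labels name polyA RNA as the molecule of every library. That entry also stands on the RPF libraries, and the study's methods start from total RNA and describe no selection step, so how RNA without a poly(A) tail was represented cannot be settled from them.

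The libraries held 217396 to 1765708 RPF reads and 3757584 to 12307819 RNA reads over coding sequences, as recovered from the RPKM steps. Reads were fewest in the RPF libraries of brown cells at day 0, with medians of 13 and 15 reads per gene and 10 per Hist gene in each. In RNA at day 0 the Hist gene with fewest reads, Hist1h4h, had 4 and 5 in brown cells. All 6 adipocyte markers were tested: their summed RNA was 50086 and 53293 RPKM in brown cells at day 5 and 488 and 509 RPKM at day 0, and 43204 and 44410.0 RPKM in white cells at day 5 and 152 and 137 RPKM at day 0. Their summed RPF at day 0 was higher than this RNA, at 1941 and 2411 RPKM in brown cells and 4451 and 4633 RPKM in white cells, which is 3.89% to 4.83% and 9.38% to 9.76% of the day 5 sum of the same lineage. The counts and medians of the Hist genes in RPF and Eff at day 5 against day 0, and the Eff change of Hist1h4h, are therefore also given with that share of the day 5 RPF value taken off each gene at day 0, an alternative chosen after seeing the data. Single-library values, sums and Eff levels are as deposited. Of the brown adipocyte, endothelial, muscle, epididymis and erythroid markers none had complete values, so they could not be checked.

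The 3′ ends set most Hist genes apart from the other genes described here, and for that reason the sequences are shown of genes whose translational efficiency moved most, with Hist1h4i as the second H4 gene and Hist1h1d as an H1 gene. In the GENCODE M21 transcripts of GRCm38, the left stem GGCNCT followed directly by the loop TTTN and the right stem AGNGCC (N for any base) was searched on the transcript strand after the stop codon. This 16-base string was present in 44 of 21877 protein-coding genes (0.201%), 42 of them Hist genes and 1 more the variant gene H2afx, which was not tested. Among the tested genes it was present in 14 of the 17 Hist genes that matched a transcript, 21 to 58 bases after the stop codon, and in none of the 6 matched variants, 2 HMG, 2 NAP1 and 3 chromobox genes. Each sequence is written 5′ to 3′ on the transcript strand, and capitals mark the stem-loop match.
Hist1h4h: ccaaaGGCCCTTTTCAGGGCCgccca
Hist1h4i: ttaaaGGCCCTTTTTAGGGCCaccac
Hist1h2bh: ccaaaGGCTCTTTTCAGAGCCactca
Hist1h2bk: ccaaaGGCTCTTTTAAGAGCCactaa
Hist2h2ac: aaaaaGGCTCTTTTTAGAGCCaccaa
Hist2h3c1: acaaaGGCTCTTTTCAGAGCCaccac
Hist1h1d: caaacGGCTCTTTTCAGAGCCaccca
The stretches lie in the 3′ untranslated part of the transcripts, in GRCm38 at chr13:23531453-23531478 for Hist1h4h (plus strand), chr13:22040961-22040986 for Hist1h4i (minus), chr13:23542923-23542948 for Hist1h2bh (minus), chr13:22036295-22036320 for Hist1h2bk (plus), chr3:96220413-96220438 for Hist2h2ac (minus), chr3:96247322-96247347 for Hist2h3c1 (plus) and chr13:23555782-23555807 for Hist1h1d (plus). The 2 H4 genes carry a stem of GGCCCT and AGGGCC, and the H2A, H2B, H3 and H1 genes one of GGCTCT and AGAGCC. Hist2h3c2 has the same 26 bases as Hist2h3c1. The annotated transcript ran on past the match by 30 to 4884 bases, and by over 100 bases in 9 of the 14 genes. No match was present in the annotated transcripts of Hist1h2bc, Hist1h2bq and Hist1h2br, and Hist1h2al, which RefSeq lists as a transcribed pseudogene, matched no transcript.

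Summed over the 18 Hist genes, RNA was several times higher at day 5 than at day 0 in both lineages, while RPF was lower. In brown cells the summed RNA was 1642 and 1444 RPKM at day 5, against 329 and 304 RPKM at day 0. White cells had 1463 and 1214 RPKM at day 5, against 205 and 204 RPKM at day 0. The day 0 and day 5 libraries did not overlap in either lineage, and the 2 libraries of a group lay close to each other beside the gap. The summed RPF of the same genes was 1356 and 1397 RPKM in brown cells at day 5, against 1901 and 1969 RPKM at day 0. White cells had 1416 and 1505 RPKM at day 5, against 3021 and 2673 RPKM at day 0. The ratio of summed RPF to summed RNA was therefore 0.892 in brown cells at day 5, against 6.12 at day 0, and 1.09 in white cells at day 5, against 13.9 at day 0. Genes with high RNA, such as Hist1h1c, weigh most in these sums and ratios. The median Hist gene in brown cells had RNA of 36.9 and 34.5 RPKM at day 5, against 8.68 and 6.78 RPKM at day 0. Its RPF was 50.9 and 49.7 RPKM at day 5, against 97.7 and 102.9 RPKM at day 0. The 7 variants showed no such rise in RNA: their summed RNA was 1398 and 1352 RPKM in brown cells at day 5, against 1604 and 1607 RPKM at day 0, and 1487 and 1468 RPKM in white cells at day 5, against 1686 and 1663 RPKM at day 0.

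**Figure D1:**
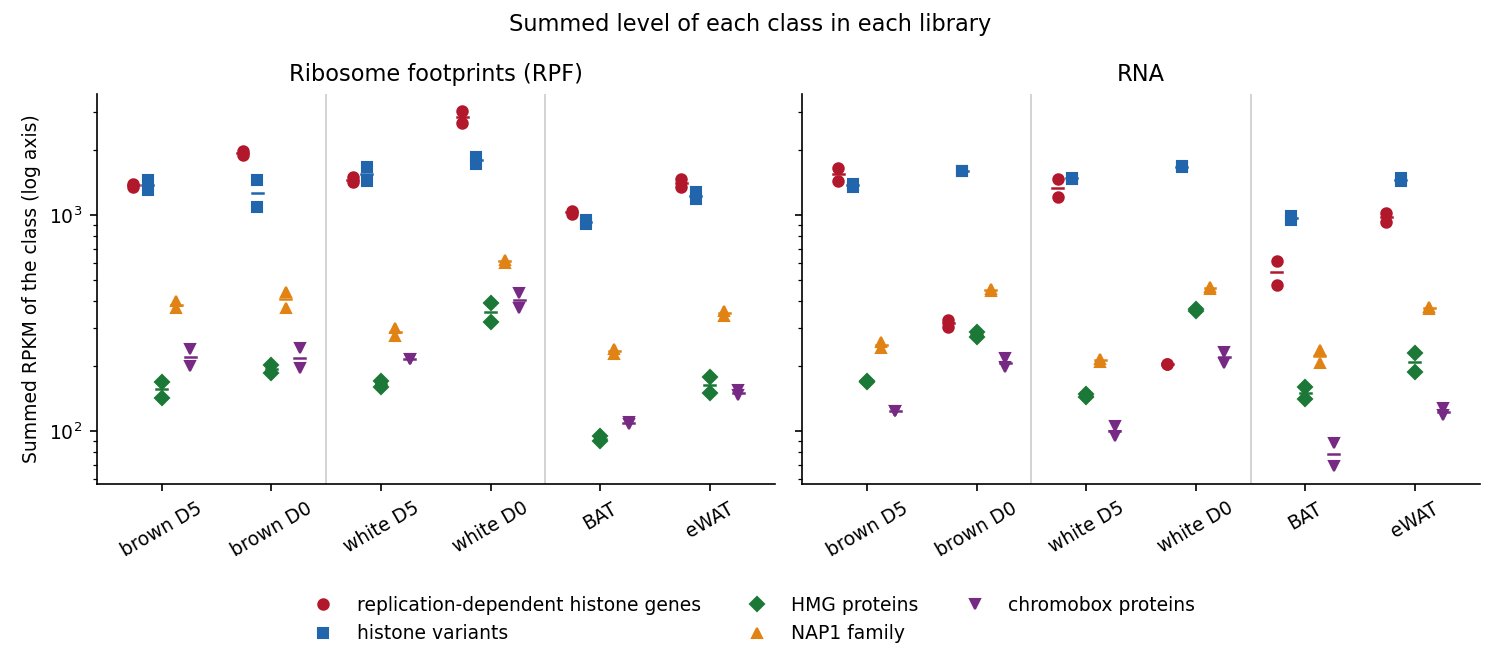
Summed RPKM of each of the 5 classes in every library (points, with a line at the mean of 2), RPF on the left and RNA on the right, by group, on a log axis. Hist RNA (red) is between 1214 and 1642 RPKM in cultured cells at day 5 and between 204 and 329 RPKM at day 0, whereas the variant RNA sums (blue) in culture stay between 1352 and 1686 RPKM.

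Each gene was then tested with limma on log2 RPKM, in RPF, in RNA and in translational efficiency (Eff, the ratio of RPF to RNA, tested as an assay by group interaction term), with Benjamini-Hochberg adjustment over all 5035 genes and a threshold of 0.05. Changes are log2 differences of means ± SE with 2 libraries per group, and the SE of a gene uses its spread over all 12 libraries of an assay (24 for Eff). The labels do not say that the 2 libraries of a culture group came from separate cultures, so these p-values measure the spread between libraries, which may be technical. In RNA, all 18 Hist genes rose at day 5 in brown cells, where 74.6% of all genes passed, 29.7% up and 44.9% down. All 18 rose in white cells too, where 81% of all genes passed, 27.5% up and 53.4% down. Their median change was 2.02 in brown cells (range 0.91 to 7.03), against −0.20 over all genes, and 2.42 in white cells (range 1.77 to 6.16), against −0.37 over all genes. No other class rose as a group: none of the 7 variants rose in brown cells and 1 rose in white cells. In bulk samples a change in the share of cells that hold a transcript and a change in its amount per cell cannot be told apart.

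In RPF most Hist genes fell or did not pass, and the 2 that rose, both in brown cells, were Hist1h4h and Hist1h1c. In brown cells 9 of 18 fell and 2 rose, beside 60.6% of all genes that passed, 34.7% down and 26% up, and their median was −0.83 against −0.16 over all genes. In white cells 14 of 18 fell and none rose, beside 52.8% of all genes that passed, 36.1% down and 16.7% up, and their median was −1.15 against −0.38. The size of these RPF changes depended on scaling. For the Hist genes in white cells it was 1 up and 9 down with median-of-ratios scaling and none up and 8 down with quantile normalization, and in brown cells 1 up and 9 down with quantile normalization. With the day 5 share taken off at day 0, 2 Hist genes rose and 9 fell in brown cells, and none rose and 12 fell in white cells, with medians of −0.80 and −1.09. Over all 32 genes the split in white cells was 1 up and 22 down with RPKM as deposited and 3 up and 13 down with median-of-ratios scaling, which moved the median of all genes by 0.34.

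Eff therefore fell for every tested Hist gene in both lineages. All 18 fell at day 5 in brown cells, where 35.9% of all genes passed, 19.9% down and 16.1% up, with a median of −3.21 against 0.02 over all genes. All 18 fell in white cells too, where 24.3% of all genes passed, 16.3% down and 7.94% up, with a median of −3.55 against −0.11. The 18 of 69 Hist genes were those with a value in all 24 libraries, also in the RPF libraries of brown cells at day 0, which held fewest reads. Hist genes with low RPF at day 0 were thus left out, and a fall in all 18 does not describe the others. Adipocyte markers also rose in RNA and fell in Eff: Eff of 5 of the 6 fell in brown cells, with a median of −2.04, and of all 6 in white cells, with a median of −4.47, and all 6 rose in RNA in both lineages, with medians of 5.89 and 8.57. Unlike most Hist genes they rose in RPF as well, 5 of 6 in brown cells and 6 of 6 in white cells, with medians of 3.76 and 3.74. A fall in Eff beside a rise in RNA was thus not particular to the Hist genes, and whether both have a common source was not tested. The smallest falls of the Hist genes were −1.62 in brown cells and −2.51 in white cells. With the day 5 share taken off the day 0 RPF values, the medians were −3.18 in brown cells and −3.48 in white cells, and all 18 were lower in both lineages. The share was at most 9.76% of the day 5 RPF value. Taking it off could hardly undo falls of this size, so that count is no separate support for them. The call of Hist1h1d in brown cells was lost without the first RNA library of brown cells at day 5 (Eff −1.44, limma adjusted p = 0.052); the other 17 in brown cells and all 18 in white cells were kept without any 1 library.

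**Figure D2:**
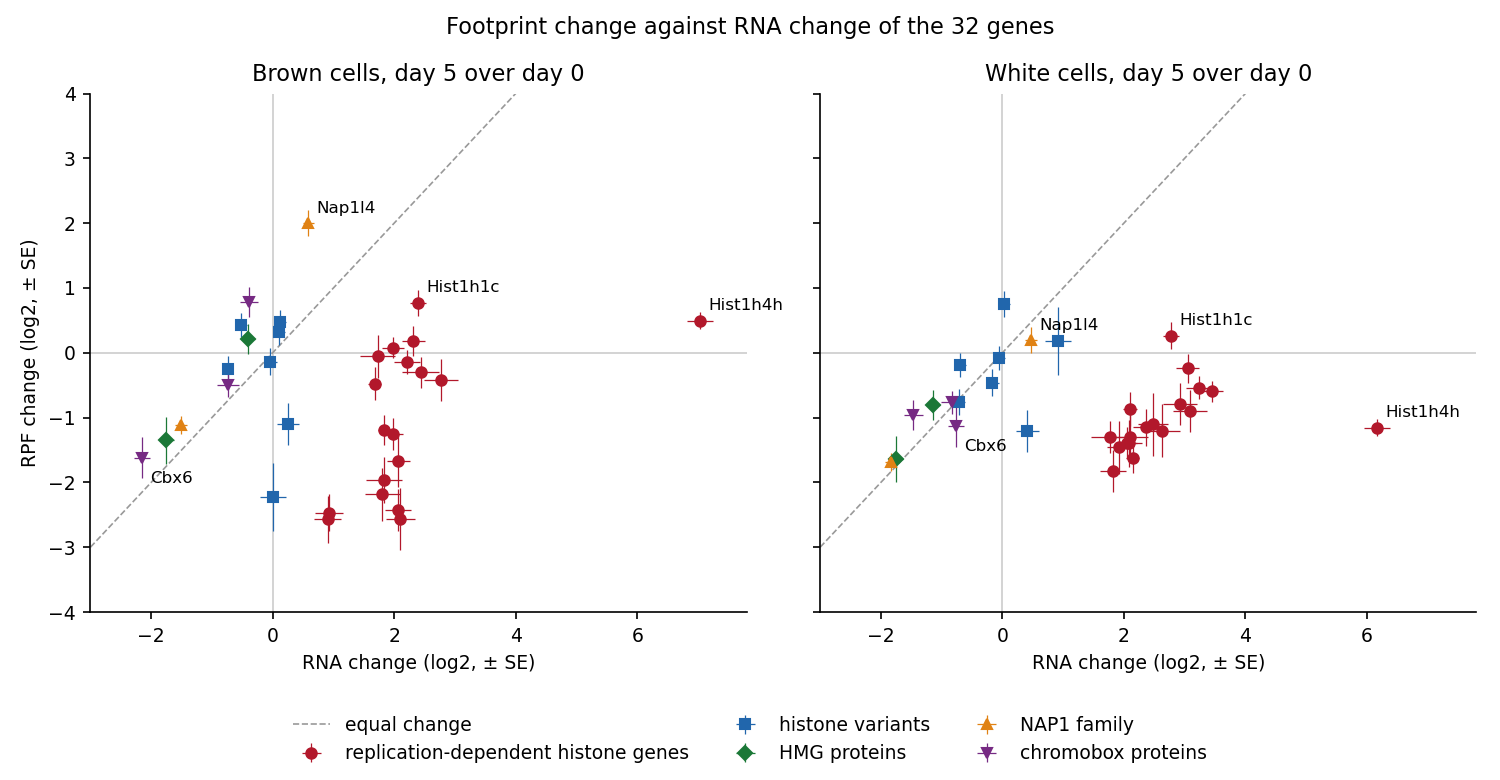
Log2 change at day 5 against day 0 in RPF (vertical axis) over the log2 change in RNA (horizontal axis) for the 32 genes, brown cells in the left panel and white cells in the right, coloured by class, with bars of ± SE. The 18 Hist genes sit at or right of an RNA change of 0.91 in brown cells and of 1.77 in white cells, below the diagonal of equal change.

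Hist1h4h, a gene for the core histone H4, had the largest of these changes. Its RNA was 255 and 223 RPKM in brown cells at day 5, against 2.07 and 1.60 RPKM at day 0. White cells had 167 and 127 RPKM at day 5, against 1.83 and 2.25 RPKM at day 0. All 4 day 0 RNA libraries thus held hardly any of it, and no day 5 library came near them. Its RPF was 319.5 and 291 RPKM in brown cells at day 5, against 225 and 207 RPKM at day 0, a change of 0.50 ± 0.13 (limma, adjusted p = 0.0052). In white cells RPF was 249 and 290.0 RPKM at day 5, against 572 and 629 RPKM at day 0, a change of −1.16 ± 0.13 (limma, adjusted p = 7.7e-06). RPF of this H4 gene thus rose in brown cells and fell in white cells, and the difference of the 2 changes was 1.66 ± 0.19 (limma interaction, adjusted p = 5.4e-05); the rise in brown cells missed the threshold without the first RPF library of brown cells at day 5 (adjusted p = 0.051) and under quantile normalization (adjusted p = 0.084). Its Eff was 1.28 in brown cells at day 5 against 118 at day 0, and 1.83 in white cells at day 5 against 294 at day 0, the highest Eff of all 5035 genes at day 0 in each lineage. With the day 5 share taken off, its Eff change was −6.45 in brown cells and −7.26 in white cells.

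The second tested H4 gene, Hist1h4i, had a smaller change in RNA than Hist1h4h. Its RNA was 39.6 and 32.5 RPKM in brown cells at day 5, against 9.09 and 4.81 RPKM at day 0, a change of 2.44 ± 0.30 (limma, adjusted p = 7.4e-06). In white cells it was 27.8 and 25.6 RPKM at day 5, against 7.05 and 8.73 RPKM at day 0, a change of 1.77 ± 0.30 (limma, adjusted p = 0.00013). Its RPF change was −0.30 ± 0.24 in brown cells (limma, adjusted p = 0.3) and −1.30 ± 0.24 in white cells (limma, adjusted p = 0.00058). Both H4 genes encode the same kind of core histone and carry the same stem letters, and their RNA levels at day 5 differed by several fold. Of the 30-base windows in the coding sequence, 22.3% of Hist1h4h and 20.5% of Hist1h4i were found in no other gene, so reads of H4 genes could be assigned to either or to copies that were not tested.

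The H2B genes held the most members, with Hist1h2bc, be, bg, bh, bk, bq and br. Hist1h2bh RNA was 38.4 and 36.4 RPKM in brown cells at day 5, against 12.2 and 6.24 RPKM at day 0, a change of 2.10 ± 0.24 (limma, adjusted p = 3.7e-06). Its RPF was 16.0 and 23.5 RPKM in brown cells at day 5, against 109 and 121 RPKM at day 0, a change of −2.56 ± 0.48 (limma, adjusted p = 0.00045). RNA and RPF of this gene thus moved in opposite directions, and neither measure overlapped between day 5 and day 0. In white cells its RNA was 32.8 and 30.7 RPKM at day 5, against 6.41 and 5.07 RPKM at day 0, and its RPF 55.8 and 61.0 RPKM at day 5, against 142 and 111 RPKM at day 0. Its Eff change was −4.66 ± 0.60 in brown cells (limma, adjusted p = 1.1e-05) and −3.58 ± 0.60 in white cells (limma, adjusted p = 0.00025).

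Hist1h2bk, whose stem-loop is printed above, had RNA of 18.1 and 22.4 RPKM in brown cells at day 5, against 6.09 and 5.25 RPKM at day 0. Its RPF was 21.3 and 13.1 RPKM in brown cells at day 5, against 43.4 and 96.8 RPKM at day 0, and its Eff change −3.79 ± 0.51 (limma, adjusted p = 1.6e-05). The 2 RNA libraries at day 5 were above both at day 0, and the 2 RPF libraries below. In white cells its RNA was 13.8 and 11.2 RPKM at day 5, against 4.06 and 2.07 RPKM at day 0, and its Eff change −3.40 ± 0.51 (limma, adjusted p = 8.1e-05). The RPF of Hist1h2bk and the other H2B genes in brown cells rests on few reads. The lowest RPF count of a Hist gene was 4 and 6 reads at day 0 and 5 in each library at day 5. The day 5 libraries held 986155 and 1005939 RPF reads, against 242424 and 217396 at day 0. A lower RPF at day 5 thus depends on scaling few reads to library size.

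Hist1h2bq and Hist1h2br, which with Hist1h2bc are the 3 tested H2B genes with no stem-loop letters in their annotated transcripts, moved in the same directions. Hist1h2bq RNA was 28.3 and 27.0 RPKM in brown cells at day 5, against 8.27 and 5.25 RPKM at day 0, and its RPF 22.6 and 19.7 RPKM at day 5, against 102 and 125 RPKM at day 0. Hist1h2br RNA was 31.5 and 26.3 RPKM in brown cells at day 5, against 6.68 and 7.10 RPKM at day 0, and its RPF 22.6 and 24.6 RPKM at day 5, against 81.7 and 68.3 RPKM at day 0. In each gene both RNA libraries at day 5 lay above, and both RPF libraries below, those at day 0. Their Eff changes in brown cells were −4.49 ± 0.42 and −3.73 ± 0.50 (limma, adjusted p = 2.3e-07 and 1.5e-05). In white cells they were −3.64 ± 0.42 and −3.37 ± 0.50 (limma, adjusted p = 3.3e-06 and 6.7e-05). None of the 30-base windows of Hist1h2bq, Hist1h2br or Hist1h2bc was found in 1 gene alone, and 4.55% of those of Hist1h2bk were, so the H2B values describe the group more surely than any single gene.

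Taken by annotated end, the Eff change had a median of −3.13 in brown cells and −3.55 in white cells for the 14 Hist genes with the stem-loop letters. For the 3 without them it was −3.73 in brown cells and −3.37 in white cells. The RNA change had a median of 1.98 in brown cells and 2.55 in white cells for the 14 genes, and of 2.06 in brown cells and 1.91 in white cells for the 3. The ranges of the larger group held those of the smaller in all of these, and with 3 genes that share their coding windows no difference between the sets was tested.

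No 30-base window of Hist1h2bc was found in 1 gene alone, so its reads cannot be told apart from those of other copies at that length. As the reads were assigned, it had the lowest Eff of the 18 in each of the 6 groups. Its Eff was 0.253 in brown cells at day 5, against 1.14 at day 0, and 0.318 in white cells at day 5, against 2.48 at day 0. Its RNA was 265 and 214 RPKM in brown cells at day 5, against 77.1 and 71.9 RPKM at day 0, and 225 and 206 RPKM in white cells at day 5, against 53.9 and 46.6 RPKM at day 0. The Eff change of this gene, −2.16 ± 0.29 in brown cells (limma, adjusted p = 1.4e-05) and −2.97 ± 0.29 in white cells (limma, adjusted p = 2.6e-07), was within the range of the family.

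Among the H2A and H3 genes of the Hist2 cluster, Hist2h2ac RNA was 22.8 and 20.5 RPKM in brown cells at day 5, against 6.28 and 6.09 RPKM at day 0. Its RPF was 13.0 and 25.6 RPKM in brown cells at day 5, against 53.0 and 130.1 RPKM at day 0, and its Eff change −3.99 ± 0.56 (limma, adjusted p = 2.3e-05). For this H2A gene, too, RNA was higher and RPF lower in both day 5 libraries, with RPF again from few reads. In white cells its RNA was 30.2 and 24.9 RPKM at day 5, against 4.18 and 4.73 RPKM at day 0, and its Eff change −3.83 ± 0.56 (limma, adjusted p = 5.9e-05). The H2A genes Hist2h2aa1 and Hist2h2aa2 had Eff changes of −1.90 ± 0.25 and −2.35 ± 0.30 in brown cells and of −4.05 ± 0.25 and −3.78 ± 0.30 in white cells.

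Hist2h3c1 and Hist2h3c2 are H3 genes with the same stem-loop stretch. Hist2h3c1 RNA was 15.7 and 14.3 RPKM in brown cells at day 5, against 9.09 and 7.0 RPKM at day 0, and its RPF 14.8 and 19.4 RPKM at day 5, against 90.5 and 112 RPKM at day 0. Hist2h3c2 RNA was 15.7 and 14.3 RPKM in brown cells at day 5, against 7.52 and 8.22 RPKM at day 0, and its RPF 19.8 and 36.4 RPKM at day 5, against 151 and 146 RPKM at day 0. Neither RNA nor RPF of either gene overlapped between the 2 days, and the printed day 5 RNA values of the 2 genes are the same. Their RPF, too, rests on few reads. Their Eff changes were −3.48 ± 0.46 and −3.40 ± 0.40 in brown cells, and −3.48 ± 0.46 and −3.52 ± 0.40 in white cells, each with a limma adjusted p of at most 2e-05. No 30-base window of Hist2h3c1, Hist2h3c2, Hist2h2aa1 or Hist2h2aa2 was found in 1 gene alone, so their reads cannot be told apart from those of a copy at that length.

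The linker histone genes Hist1h1c, Hist1h1d and Hist1h1e had the most distinct coding sequences among the Hist genes, with 65% to 70.8% of their windows found in no other gene. Hist1h1c RPF was 248 and 249 RPKM in brown cells at day 5, against 155 and 137 RPKM at day 0, a rise of 0.77 ± 0.21 (limma, adjusted p = 0.0055). Its RNA was 495 and 424 RPKM in brown cells at day 5, against 92.0 and 83.1 RPKM at day 0, and its Eff change −1.62 ± 0.26 (limma, adjusted p = 9.4e-05). In white cells its RNA was 400.2 and 335 RPKM at day 5, against 49.2 and 57.9 RPKM at day 0, and its Eff change −2.51 ± 0.26 (limma, adjusted p = 7.6e-07). The fall in Eff was thus present in a Hist gene whose reads can largely be told apart, and in which RNA rose by more than RPF. Hist1h1d and Hist1h1e had Eff changes of −1.78 ± 0.48 and −2.14 ± 0.32 in brown cells, and of −3.71 ± 0.48 and −3.29 ± 0.32 in white cells.

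**Figure D3:**
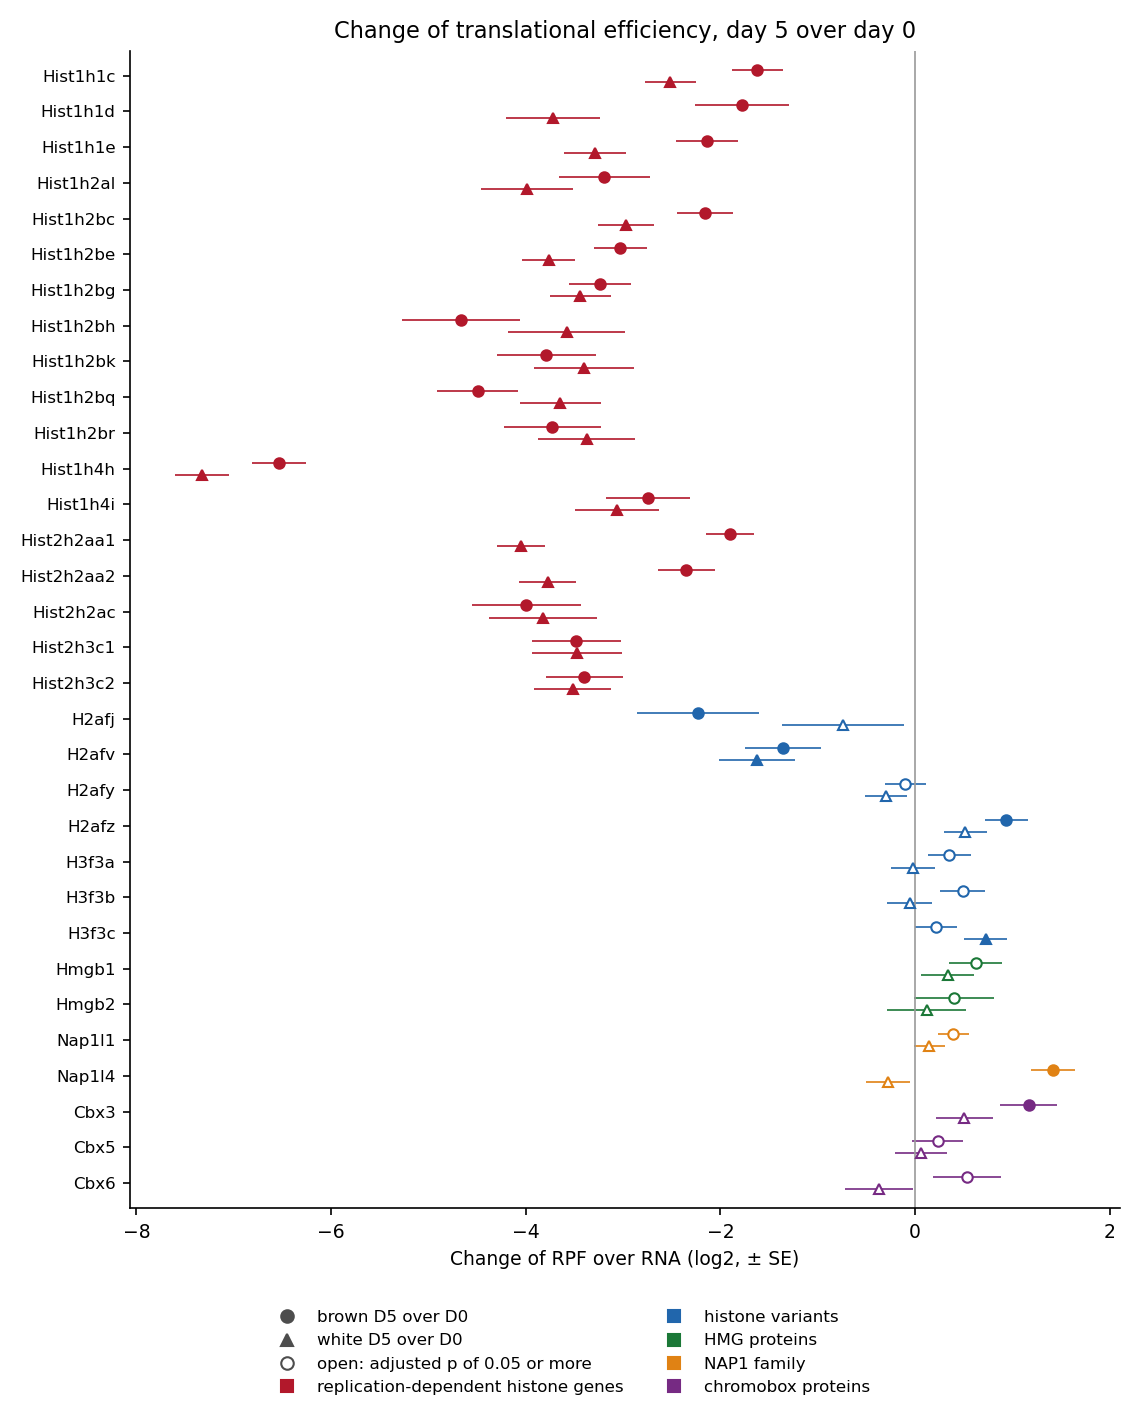
Log2 change of Eff at day 5 against day 0 for each of the 32 genes with its standard error, brown and white cells side by side, grouped by class. All Hist genes lie at or below −1.62 in brown cells and −2.51 in white cells, and the other classes lie around 0 between −2.23 and 1.41 in brown cells.

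As a level, the Eff of the Hist genes was far above that of all genes at day 0 and near it at day 5. Their median Eff was 0.90 in brown cells at day 5 against 12.5 at day 0, beside all-gene medians of 0.90 and 0.92. In white cells it was 1.52 at day 5 against 21.5 at day 0, beside 0.98 and 1.03. At day 0, 16 of the 18 were among the 100 genes with the highest Eff of the 5035 in each lineage, against 3 of 18 at day 5. In tissue the Hist median lay between these, at 2.45 in BAT and 1.99 in eWAT beside 0.86 over all genes in each, with 6 of 18 among the highest 100. The levels and ranks at day 0 depend on which genes were tested. A value was needed in all 24 libraries, and the lowest recovered count in each RPF library was 4 reads. On a short coding sequence, 4 reads give a high RPKM in the RPF libraries of brown cells at day 0. Hist genes with lower RPF there could not be tested, so the high Eff at day 0 is partly set by that choice. The variants had median Eff values of 0.64 in brown cells at day 5 against 0.70 at day 0, and 0.92 in white cells at day 5 against 0.89 at day 0.

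**Figure D4:**
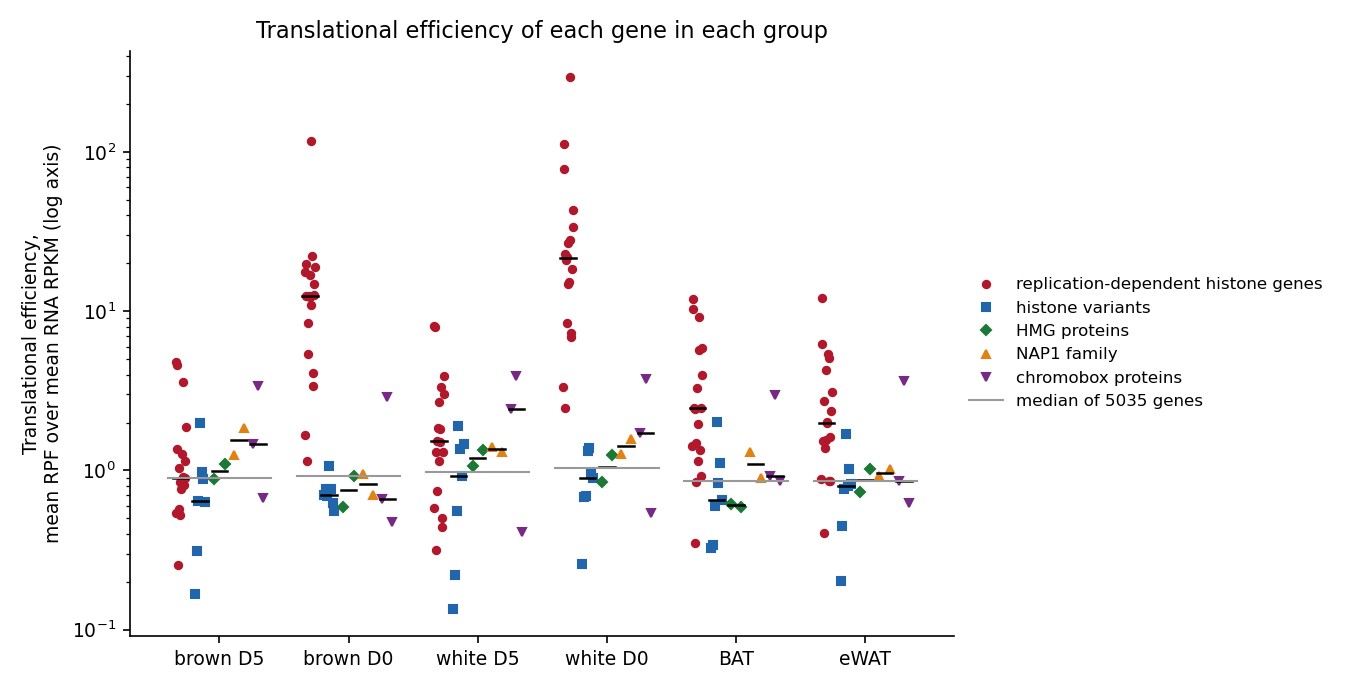
Eff (mean RPF over mean RNA, log axis) of each of the 32 genes in the 6 groups, by class, with the median over all 5035 genes. The Hist genes have medians of 0.90 and 12.5 in brown cells at day 5 and day 0 and of 1.52 and 21.5 in white cells.

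Of the 7 variants, Eff of 1 was higher and of 2 lower at day 5 in brown cells, and of 1 higher and 1 lower in white cells. Over all genes, Eff of 16.1% was higher and of 19.9% lower in brown cells, and of 7.94% higher and 16.3% lower in white cells. H2afz, an H2A.Z gene, had RNA of 314 and 309.6 RPKM in brown cells at day 5, against 448 and 444 RPKM at day 0, and RPF of 620.0 and 618 RPKM at day 5, against 577 and 369 RPKM at day 0. Its Eff rose by 0.94 ± 0.22 in brown cells (limma, adjusted p = 0.0029) and, at 0.52 ± 0.22, did not pass in white cells (adjusted p = 0.1). In brown cells both day 5 RNA libraries of H2afz lay below, and both RPF libraries above, those at day 0, while in white cells the RPF libraries of the 2 days overlapped. The other H2A.Z gene, H2afv, was the variant whose Eff fell in both lineages. Its RNA was 97.9 and 77.2 RPKM in brown cells at day 5, against 71.2 and 75.0 RPKM at day 0, and its RPF 36.8 and 18.0 RPKM at day 5, against 64.1 and 47.7 RPKM at day 0. Its Eff change was −1.35 ± 0.39 in brown cells and −1.62 ± 0.39 in white cells (limma, adjusted p = 0.011 and 0.0048). The call in brown cells was lost without the second RPF library at day 5 (adjusted p = 0.083) or the first RNA library at day 5 (adjusted p = 0.055). Both H2A.Z genes had all of their 30-base windows to themselves.

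H2afj RPF was 13.0 and 43.4 RPKM in brown cells at day 5, against 148 and 82.8 RPKM at day 0, a change of −2.22 ± 0.53 (limma, adjusted p = 0.0025). The 2 day 5 libraries of this H2A.J gene differed from each other by several fold. Its RNA was 183 and 152 RPKM in brown cells at day 5, against 165 and 167 RPKM at day 0, and 309 and 223 RPKM in white cells at day 5, against 146 and 133 RPKM at day 0. RNA rose by 0.91 ± 0.21 in white cells (limma, adjusted p = 0.0014), against a change of 0.01 ± 0.21 in brown cells (adjusted p = 0.98). The difference, −0.91 ± 0.30 in brown relative to white cells (limma interaction, adjusted p = 0.033), was lost when any of 6 RNA libraries was left out. Its Eff change in brown cells of −2.23 ± 0.63 (limma, adjusted p = 0.0093) was lost without the first RPF library at day 5 (adjusted p = 0.076).

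H3f3b, one of the 2 genes of H3.3, fell in RNA in both lineages. It had 237 and 217 RPKM in brown cells at day 5, against 382 and 377 RPKM at day 0, a change of −0.74 ± 0.10 (limma, adjusted p = 1.2e-05). In white cells it had 261 and 239 RPKM at day 5, against 394 and 421 RPKM at day 0, a change of −0.71 ± 0.10 (limma, adjusted p = 1.8e-05). Both day 5 libraries lay below both day 0 libraries in each lineage, opposite to the Hist genes. The RNA change of H3f3a was 0.12 ± 0.09 in brown cells and −0.06 ± 0.09 in white cells, with limma adjusted p = 0.26 and 0.6.

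Hmgb2, which is abundant in dividing cells, fell in RNA in both lineages. It had 25.8 and 26.5 RPKM in brown cells at day 5, against 84.0 and 92.8 RPKM at day 0, a change of −1.75 ± 0.12 (limma, adjusted p = 2.2e-08). White cells had 33.4 and 36.4 RPKM at day 5, against 117 and 119 RPKM at day 0, a change of −1.76 ± 0.12 (limma, adjusted p = 2.3e-08). No day 5 library reached a day 0 library, and the changes of the 2 lineages differed by 0.00 ± 0.17 (limma interaction, adjusted p = 0.99). Its RPF was 30.5 and 26.7 RPKM in brown cells at day 5, against 45.7 and 116 RPKM at day 0 (−1.35 ± 0.36; limma, adjusted p = 0.0053, and 0.065 without the second RPF library at day 0). In white cells its RPF was 49.3 and 44.8 RPKM at day 5, against 143 and 150.4 RPKM at day 0 (−1.64 ± 0.36; limma, adjusted p = 0.0018). Hmgb1, the ubiquitous member, fell less in RNA: it had 146 and 143 RPKM in brown cells at day 5, against 188 and 195 RPKM at day 0 (−0.41 ± 0.11), and 110.4 and 113 RPKM in white cells at day 5, against 252 and 242 RPKM at day 0 (−1.15 ± 0.11). The fall in brown cells missed the threshold with median-of-ratios scaling (limma, adjusted p = 0.073). Neither HMG gene passed in Eff in either lineage.

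The NAP1 chaperones Nap1l1 and Nap1l4 moved apart. Nap1l1 RNA was 125 and 133 RPKM in brown cells at day 5, against 375 and 361 RPKM at day 0 (−1.51 ± 0.10; limma, adjusted p = 9.6e-09). White cells had 111 and 105 RPKM at day 5, against 391 and 381 RPKM at day 0 (−1.84 ± 0.10; limma, adjusted p = 1.4e-09). Its RPF fell with it, with changes of −1.11 ± 0.13 in brown cells and −1.69 ± 0.13 in white cells. Nap1l4 RNA instead rose in both lineages, by 0.59 ± 0.09 in brown cells and 0.48 ± 0.09 in white cells. Its RPF was 233 and 213 RPKM in brown cells at day 5, against 47.6 and 65.3 RPKM at day 0, and 153 and 121 RPKM in white cells at day 5, against 107 and 131 RPKM at day 0. The brown day 0 libraries stood below the other 3 culture groups. The RPF change was 2.00 ± 0.20 in brown cells (limma, adjusted p = 1.7e-06) and 0.20 ± 0.20 in white cells (adjusted p = 0.44), and the Eff change 1.41 ± 0.23 in brown cells (adjusted p = 9.4e-05) and −0.28 ± 0.23 in white cells (adjusted p = 0.41). The difference between lineages was 1.69 ± 0.32 in Eff (limma interaction, adjusted p = 0.0017), and it was kept without any 1 library.

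All 3 chromobox genes fell in RNA in both lineages, beside 44.9% of all genes that fell in brown cells and 53.4% in white cells. Cbx6 had 12.4 and 10.5 RPKM in brown cells at day 5, against 50.2 and 50.9 RPKM at day 0 (−2.15 ± 0.13), and 32.6 and 29.2 RPKM in white cells at day 5, against 48.9 and 56.3 RPKM at day 0 (−0.77 ± 0.13). Cbx5 RNA was 24.6 and 24.1 RPKM in brown cells at day 5, against 39.1 and 42.1 RPKM at day 0 (−0.74 ± 0.18), and 23.2 and 24.3 RPKM in white cells at day 5, against 39.3 and 45.2 RPKM at day 0 (−0.83 ± 0.18). These falls passed with limma adjusted p of at most 0.0023, and no day 5 library overlapped a day 0 library. The Polycomb gene Cbx6 fell further in brown cells, with a difference of −1.38 ± 0.18 from white cells (limma interaction, adjusted p = 0.0002). Cbx3 RNA was 87.8 and 90.3 RPKM in brown cells at day 5, against 129 and 105 RPKM at day 0 (−0.39 ± 0.15), and 49.8 and 41.4 RPKM in white cells at day 5, against 119 and 131 RPKM at day 0 (−1.46 ± 0.15). Its RPF rose by 0.78 ± 0.23 in brown cells and fell by 0.96 ± 0.23 in white cells on the log2 scale (limma, adjusted p = 0.011 and 0.0038). The RPF rise in brown cells was lost without the second RPF library of either day, and the RNA fall in brown cells without the first RNA library at day 0 or either at day 5, and with median-of-ratios scaling (limma, adjusted p = 0.2).

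Brown and white cells were next compared at each day; these comparisons share libraries with those above and with each other. At day 0, RNA of 6 of the 18 Hist genes was higher in brown than in white cells and none was lower, where 3.75% of all genes passed, 2.9% higher and 0.854% lower, with a Hist median of 0.62 against 0.01 over all genes. In RPF, 4 Hist genes were lower in brown cells and none higher, where 37.3% of all genes passed, 24.9% lower and 12.4% higher. The RPF count over the 32 genes, 13, was 7 without the second RPF library of brown cells at day 0 and 6 without the first of white cells. In Eff, 8 of 18 were lower in brown cells and none higher, where 33.2% of all genes passed, 22.2% lower and 10.9% higher, with a median of −0.94 against −0.20. The RNA count over the 32 genes, 7, was 2 without the first RNA library of brown cells at day 0, 4 without the second of white cells at day 0 and 11 without either BAT library. It was 15 when the 2 groups were fitted alone. At day 5, 3 Hist genes were higher and 1 lower in RNA in brown cells, 1 higher and 3 lower in RPF, and 1 higher and 2 lower in Eff. Of all genes 51.9% passed in RNA (32% higher and 19.9% lower), 13.7% in RPF (5.48% higher and 8.26% lower) and 7.41% in Eff (2.24% higher and 5.16% lower). With median-of-ratios scaling the RNA split over all 32 genes at day 5 was 3 up and 8 down in place of 6 up and 5 down, and that of the Hist genes 2 and 2. Under quantile normalization the Hist genes at day 5 were 2 up and 2 down in RNA, none up and 2 down in RPF, and 1 up and none down in Eff, and at day 0 they were 6 up and 1 down in RNA. The count of 11 was 4 without either day 5 RNA library of brown cells, 5 without the second of white cells and 17 without either BAT library. The RPF count of 6 was 2 without the first and 3 without the second day 5 RPF library of brown cells, and 3 without the second of white cells. The Eff count of 4 was 1 without either day 5 RNA library of brown cells, and 2 without either of white cells, without the second day 5 RPF library of brown cells or without the first of white cells.

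The difference between lineages in the day 5 change was tested as an interaction. In RNA, 6 of the 18 Hist genes had a lower change in brown than in white cells and 1, Hist1h4h, a higher one, where 35.3% of all genes passed, 13.7% lower and 21.6% higher. In RPF 3 were higher and 1 lower, where 31.2% of all genes passed, 20% higher and 11.3% lower. In Eff 2 were higher and none lower, where 15.6% of all genes passed, 9.79% higher and 5.78% lower. The 2 Eff differences were those of the paired H2A copies Hist2h2aa1 (2.14 ± 0.35; limma, adjusted p = 0.00049) and Hist2h2aa2 (1.43 ± 0.42; limma, adjusted p = 0.026). Hist2h2aa1 RNA was 104 and 102 RPKM in brown cells at day 5, against 25.2 and 26.7 RPKM at day 0, and 150.1 and 122 RPKM in white cells at day 5, against 12.2 and 12.5 RPKM at day 0. Because Eff is the ratio of RPF to RNA, the smaller RNA rise of this gene in brown cells is by definition part of its smaller fall in Eff. The call of Hist2h2aa2 was lost when any of 8 culture libraries, 2 RPF and 6 RNA, was left out. Over the 32 genes the 9 calls in RPF were 3 to 5 without any 1 of the culture RPF libraries other than those of brown cells at day 0, and 3 up and 2 down in place of 7 up and 2 down with either other scaling. The Hist genes were then 1 up and 1 down in RPF, and none up and 7 down in RNA with median-of-ratios scaling. The 11 calls in RNA were 5 to 7 without either day 0 library or the second day 5 library of brown cells, or without the second day 0 or first day 5 library of white cells. The 3 calls in Eff were 6 without the first RPF library of brown cells at day 0 and 5 without the second at day 5.

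In tissue the summed Hist genes were lower in BAT than in eWAT in both RNA and RPF, and none passed in Eff. Summed over the 18 genes, RNA was 474 and 612 RPKM in BAT, against 1026 and 925 RPKM in eWAT, and RPF 1015 and 1049.6 RPKM in BAT, against 1473 and 1351 RPKM in eWAT. In RNA 12 of 18 were lower and none higher, where 69.2% of all genes passed, 50.2% lower and 19.1% higher, with a median of −0.68 against −0.30. In RPF 6 were lower and 1, Hist1h4h, higher, where 39.8% of all genes passed, 28.1% lower and 11.6% higher, with a median of −0.52 against −0.31. Under quantile normalization none was higher and 3 were lower in RPF. Over the 32 genes the RPF count of 14 was 9 without the second RPF library of BAT. The share of Hist genes lower in RNA, 12 of 18, is to be read beside the 50.2% of all genes, and under quantile normalization, which moved the median of all genes by 0.35, the split of the Hist genes was 2 up and 7 down. In Eff none of the 32 genes passed, where 4.05% of all genes passed, 3.12% higher and 0.933% lower, although 6 had an unadjusted limma p under 0.05 and the smallest adjusted p was 0.077, for Nap1l1. The voom fit on recovered reads also called none, and quantile normalization called 1. Leaving out 1 library gave 0 to 2, with 2 without the first RPF library of eWAT and 1 without either RPF library of brown cells at day 0 or either RNA library of BAT.

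Among the single genes in tissue, Hist1h4h RNA was 38.4 and 61.6 RPKM in BAT, against 44.8 and 37.5 RPKM in eWAT, and its RPF 273 and 297 RPKM in BAT, against 229 and 218 RPKM in eWAT. The RPF libraries did not overlap and the RNA libraries did, and the RPF change of 0.35 ± 0.13 (limma, adjusted p = 0.049) was lost when any of 8 RPF libraries was left out, the 4 tissue libraries among them. Cbx6 RNA was 5.53 and 6.64 RPKM in BAT, against 31.5 and 28.5 RPKM in eWAT (−2.31 ± 0.13; limma, adjusted p = 5.2e-09), and Nap1l1 RNA 96.8 and 79.6 RPKM in BAT, against 293 and 282 RPKM in eWAT (−1.71 ± 0.10; limma, adjusted p = 5e-09). In both genes each BAT library lay well below both eWAT libraries. Nap1l4 was the gene that was higher in BAT RNA, at 141 and 127 RPKM, against 83.3 and 88.0 RPKM in eWAT (0.65 ± 0.09; limma, adjusted p = 4.5e-05). Of 8 leukocyte markers only Lyz2 was tested, and its RNA was 201 and 191 RPKM in BAT, against 859 and 805 RPKM in eWAT. The 6 tested preadipocyte and fibroblast markers summed to 901 and 1018 RPKM of RNA in BAT, against 2463 and 2297 RPKM in eWAT. The part of these cells in the histone differences was not tested.

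**Figure D5:**
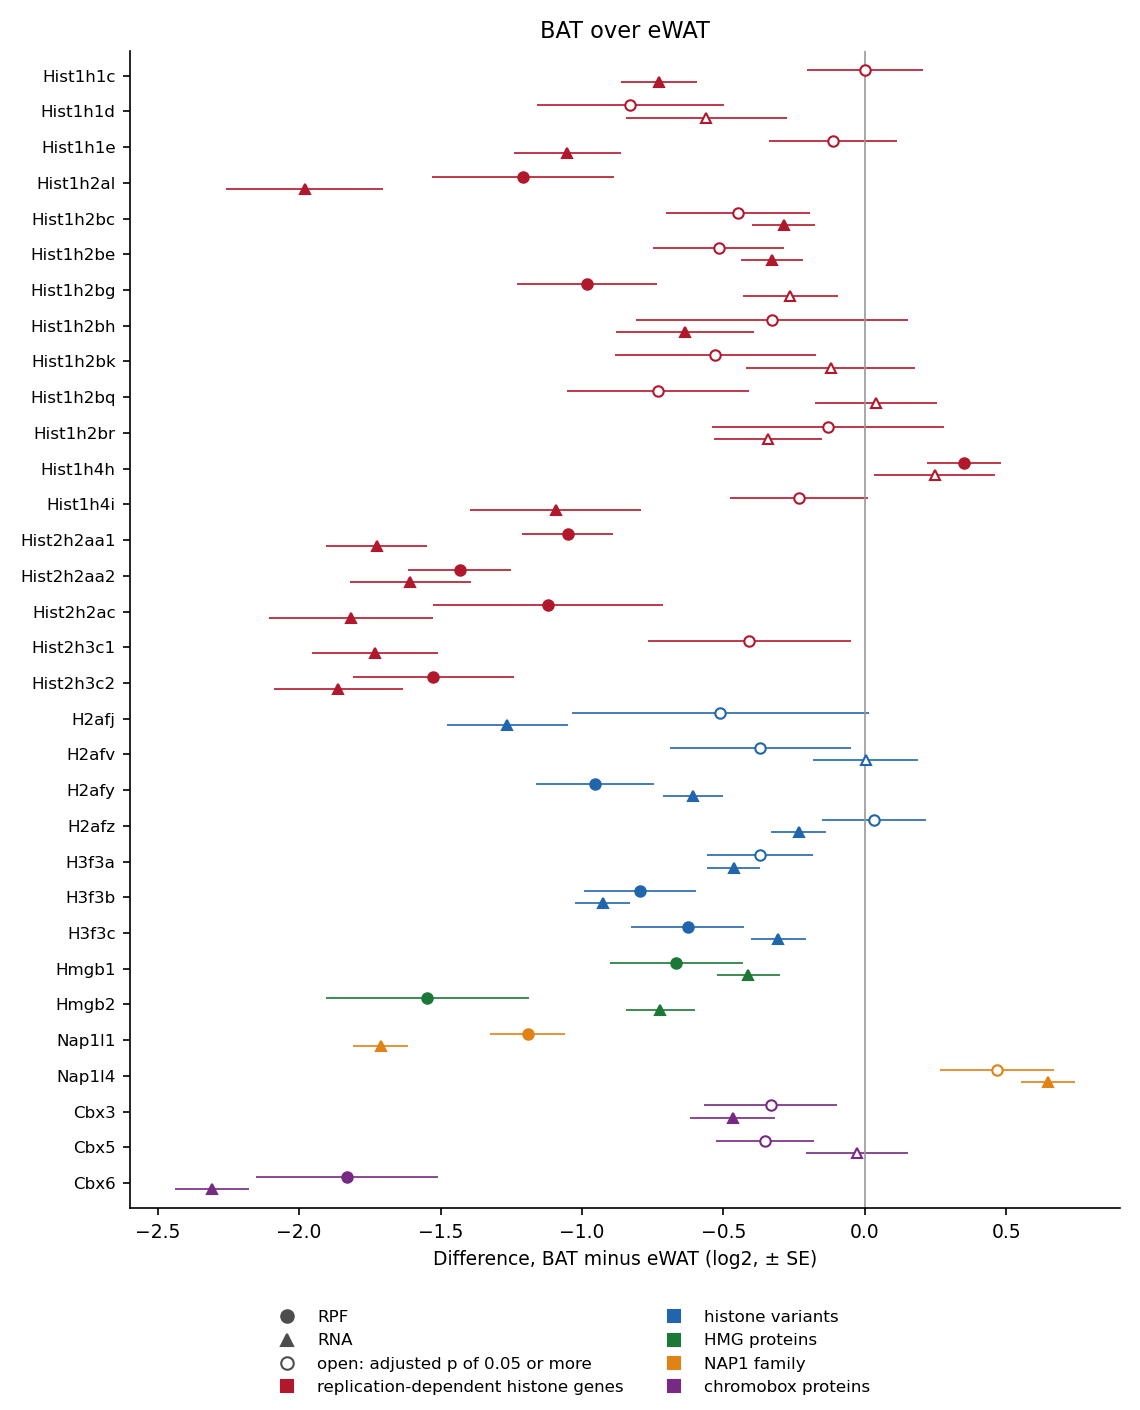
Log2 difference of BAT over eWAT with its standard error for each of the 32 genes, in RNA and RPF, by class. In RNA 23 genes are lower and 1 higher in BAT, and in RPF 13 are lower and 1 higher.

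RNA of most tested genes that process histone mRNAs or carry histones was lower at day 5, unlike that of the Hist genes, beside 44.9% of all genes lower in brown cells and 53.4% in white cells. Of 21 listed genes for histone mRNA 3′ end processing 15 were tested, with RNA of 1 higher and 9 lower at day 5 in brown cells, and of none higher and 11 lower in white cells. Their median change was −0.30 in brown cells and −0.81 in white cells, against −0.20 and −0.37 over all genes. SLBP, the stem-loop binding protein (Slbp), differed by −0.18 ± 0.15 in brown cells (not called; limma, adjusted p = 0.29) and fell by 0.49 ± 0.15 in white cells on the log2 scale (limma, adjusted p = 0.0093). Npat, which activates Hist gene transcription, fell with changes of −0.57 ± 0.24 in brown cells and −1.62 ± 0.24 in white cells (limma, adjusted p = 0.046 and 3.4e-05). Of 30 listed chaperones and remodellers 20 were tested, with 1 higher and 15 lower in brown cells, and none higher and 16 lower in white cells, with medians of −0.49 in brown cells and −0.93 in white cells. The histone chaperone Nasp had an RNA change of −1.47 ± 0.18 in brown cells and −1.95 ± 0.18 in white cells.

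RNA of most tested genes of DNA replication and mitosis was also lower at day 5, to be read beside the same 44.9% and 53.4% of all genes. Of 38 listed replication genes 10 were tested, with 1 higher and 9 lower in brown cells and all 10 lower in white cells, and medians of −1.31 in brown cells and −1.40 in white cells. The replicative helicase subunit Mcm6 changed by −3.11 ± 0.20 in brown cells and −1.99 ± 0.20 in white cells, and the sliding clamp Pcna by −1.01 ± 0.11 in brown cells and −1.36 ± 0.11 in white cells. Of 27 listed mitosis and cell cycle genes 11 were tested, with 1 higher and 8 lower in brown cells, and 2 higher and 8 lower in white cells, and medians of −1.02 in brown cells and −1.12 in white cells. The proliferation marker Mki67 changed by −3.49 ± 0.21 in brown cells and −2.68 ± 0.21 in white cells. Hist RNA thus rose at the day when RNA of most tested replication genes was lower.

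The promoters were searched because the Hist genes moved together, in the RefSeq windows of GRCm38.p6 from 250 bases before to 50 bases after the start, on both strands. The CCAAT box was present in 14 of the 16 tested Hist genes with a window (87.5%), against 41.1% of all 27025 genes. The letters TATAAA were present in 7 of 16 (43.8%), against 15.7%. The octamer ATTTGCAT, known from H2B promoters, was present in 4 of 16 (25%), against 1.97%, namely Hist1h2be, Hist1h2bg, Hist1h2bk and Hist2h2ac. Of the 6 variants with a window 5 held CCAAT, so that box did not separate variants from Hist genes, and H3f3b held all 3 motifs.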

How the data were processed

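The authors deposited 1 table of RPKM values for 24 libraries in 12 groups of 2. Per the labels and methods, adapters were trimmed with cutadapt 1.8.3, reads were aligned with TopHat2 2.0.9 and Bowtie 1.0.0 without mismatches and to 1 site per read on the most abundant isoform of each gene, and RPKM was computed over coding sequences. The genome build is not given in the sources used here. Assignment to 1 site can shift reads between near-identical Hist genes, so family sums are given beside single genes. How uniquely a gene could be read was estimated as the share of 30-base windows of its coding sequence found in no other gene (GENCODE M21).

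Genes with a value above 0 in all 24 libraries (5035) were fitted on log2 RPKM, without pseudocount, in limma 3.58.1 (R 4.3.3) with a variance trend: RPF and RNA over 12 libraries each, and Eff as the interaction over 24. Calls needed a Benjamini-Hochberg adjusted p under 0.05. RPKM steps gave whole reads (tolerance 0.05) in every library for 4751 of 4841 genes with 1 coding length, and for 28 of the 32 genes described, not H2afy, H3f3c, Hist1h2al and Nap1l1. These reads gave the depths and a voom fit. Alternatives were a pseudocount of 1, a minimum mean of 5 RPKM, median-of-ratios and quantile scaling, a replicate block, fits of the compared groups alone, no variance trend, each library left out, and the subtraction at day 0. The fit was tested on simulated data. The genes named include the 8 Hist genes with the largest Eff change in brown cells and up to 3 genes of each other class with the smallest adjusted p. Genes whose Eff passed in both lineages were added, and other tested genes are named as examples. Library values are given for some of these genes, and not in every group and measure. The genes and lists were chosen with earlier results of these data known. No columns of other samples were present. Sequences come from GENCODE M21 and RefSeq.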

Additional observations from a re-analysis of the deposited data

Results flagged for a closer look

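The day 5 change differed between brown and white cells, by the limma interaction test, for the following genes, given as the brown minus the white log2 change. In RPF the differences were 1.74 for Cbx3, 1.02 for Hmgb1, 0.57 for Nap1l1, 1.81 for Nap1l4, 1.66 for Hist1h4h, 0.99 for Hist1h4i, 0.68 for Hist2h2aa1, −2.40 for H2afj and −1.32 for Hist2h3c2. In RNA they were 1.08 for Cbx3, 0.74 for Hmgb1, 0.87 for Hist1h4h, −1.38 for Cbx6, −0.91 for H2afj, −1.20 for Hist1h1d, −0.73 for Hist1h1e, −1.47 for Hist2h2aa1, −1.03 for Hist2h2aa2, −1.17 for Hist2h3c1 and −1.44 for Hist2h3c2. In Eff they were 1.69 for Nap1l4, 2.14 for Hist2h2aa1 and 1.43 for Hist2h2aa2. The call of Hist1h4h in RNA was lost without the second RNA library at day 0 of either lineage, without either at day 5 of brown cells or without the second at day 5 of white cells; the day 0 libraries held 4 to 8 reads of it. Its RPF difference was kept when each library was left out.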

How the results depend on the processing

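Of 255 single calls over the 32 genes, 253 were kept with a pseudocount of 1, 254 with a minimum mean of 5 RPKM, 215 with median-of-ratios scaling, 206 with quantile normalization, 239 with the compared groups alone, 239 without the variance trend, 239 with the day 0 subtraction, and 208 of the 227 that voom could test. H2afz RNA in tissue turned to 0.025 with median-of-ratios scaling and Hist1h2be RNA in tissue to 0.088 with quantile normalization, on the log2 scale; the cause was not tested.

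Counts over the 32 genes moved by over 1.5 times in the following cases. With quantile normalization RPF gave 15 calls in white cells at day 5 against day 0, 6 between lineages at day 0, 3 between lineages at day 5, 5 for the interaction and 9 in tissue, and Eff gave 2 between lineages at day 5 and 1 in tissue. With median-of-ratios scaling RPF gave 7 between lineages at day 0 and 5 for the interaction, which was also 5 without the variance trend. With the compared groups alone RNA gave 15 between lineages at day 0 and 20 at day 5. The splits moved by over 10 points in RPF for the interaction (7 up and 2 down, then 3 and 2 with either scaling), in RPF in tissue (1 up and 13 down, then 2 and 9 with median-of-ratios scaling) and between lineages at day 5 (2 up and 4 down, then 0 and 3 with quantile normalization). In RNA they moved between lineages at day 0 (6 up and 1 down, then 6 and 4 with quantile normalization), at day 5 (4 and 7 with quantile normalization) and in tissue (1 up and 23 down, then 4 and 15 with quantile normalization). In Eff between lineages at day 5, the 1 up and 3 down were 1 and 1 with quantile normalization.

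With each library left out in turn there were 16 to 22 calls in RPF in brown cells, 17 to 24 in white cells, 6 to 13 between lineages at day 0, 2 to 7 at day 5, 3 to 10 for the interaction and 9 to 16 in tissue. In RNA there were 26 to 27 in brown cells, 28 to 29 in white cells, 2 to 11 between lineages at day 0, 4 to 17 at day 5, 5 to 14 for the interaction and 19 to 25 in tissue. In Eff there were 21 to 25 in brown cells, 19 to 21 in white cells, 11 to 15 between lineages at day 0, 1 to 5 at day 5, 2 to 6 for the interaction and 0 to 2 in tissue. A group left with 1 library was assumed to vary like the others. Same-numbered libraries did not deviate together in RPF (correlations between groups of −0.07 to 0.02) or between RPF and RNA of a group (−0.06 to 0.02). In RNA they did in some groups: brown cells at day 0, white cells at day 5, BAT and eWAT correlated with one another, over 0.1 in all 6 of their pairs and up to 0.36, while the other 9 of the 15 pairs did not and reached −0.33. As not every pair was over 0.1, the numbers were not taken to pair the samples. With the replicate number as a block, 246 of 255 calls were kept, and Eff between lineages at day 5 gave 2 calls.

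Depth limited the RPF of single Hist genes, with medians of 10 reads per gene in both libraries of brown cells at day 0 and in the second of white cells at day 5, and a minimum of 4 reads in 1 library each of brown cells at day 0, white cells at day 5, BAT and eWAT, so a single gene's RPF there is less certain than the family sum. Over all genes with recovered reads the lowest count was also 4 in each RPF library, so no gene with fewer reads was among them.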
